A study of Ginkgo biloba with 2 samples.

Results

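Short, less conserved microRNA (miRNA) names were described in leaves of Ginkgo biloba, a gymnosperm in which female and male trees are separate. These are the known miRNA names numbered 1000 or higher, with 16 names set apart, whose listed sequence had 20 or fewer bases in every library that listed the name. The rule gave 119 of 723 known names from the name and the length of the sequence. The names set apart were listed by name and include abundant ones, so the level bore on what was removed: they held 22.8% of known miRNA reads in female leaves and 28.9% in male leaves. Of these 16, 3 would have met the length limit: miR1215 at 20053 RPM in female leaves and 24472 RPM in male leaves, miR5301 at 7837 and 7088 RPM, and miR5163 at 0 and 454 RPM. The sums and shares below are without them. Of these, 85 were found in female leaves and 67 in male leaves. The study sequenced small RNA from mature leaves of female and of male trees about 30 years old, growing under natural conditions. There was 1 library of each sex, called female leaves and male leaves below, and the labels name no treatment or mutation for either. The labels do not say whether each is a single tree or a pool, and there is no replicate check of any difference. The small RNA tables hold no leaf marker transcripts, so the tissue label could not be checked. A list of 31 names, called conserved families below, was set beside the short names. All 31 were in the tables and 30 were found in both libraries, which is no check of tissue or sex.

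Plant miRNAs are cut from hairpin precursors by Dicer-like enzymes and loaded into ARGONAUTE proteins, where they guide cleavage or repression of transcripts with a matching site. The main enzyme of this pathway, DCL1, mostly gives products of 21 bases. In Arabidopsis the first base helps to sort small RNAs among ARGONAUTE proteins, with U favouring AGO1, A favouring AGO2 and C favouring AGO5. Names with high numbers were mostly given to miRNAs described in 1 species or a few related ones, and a match to such a name in another plant rests on sequence likeness. Pieces of other cellular RNAs, such as transfer RNA, also occur in small RNA libraries at these lengths.

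The sequences of the 10 highest names by mean level are shown first, because they carried most of the reads. They are printed 5′ to 3′ as DNA letters, with T for U, and the capitals mark bases 2 to 8, the seed. The name alone is given where both libraries listed the same sequence or where 1 library listed it.
miR5261: tATATGGAgatggctttggt
miR5386, female library only: cGCGCTGTcggcggtctg
miR1149: tGGTGTCTgaaggaggtgtc
miR2199: tGATAACTcgacggatcgc
miR8124, female: aGTTGGATcttgggccgg
miR8124, male: aGTTGGATcttgggccggg
miR1526: cCGAAGAAgacaataagcaa
miR7812, female: tTGTTGATgaattgatggat
miR7812, male: tGTTGATGaattgatggat
miR6477, male library only: tGACAGTAgcgtggcattat
miR5077, female: tTCACGTCgggttcacca
miR5077, male: gATTCACGtcgggttcacca
miR6300: gTCGTTGTagtatagtgg

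Levels are given in RPM, the read count scaled by the authors to 1 total per library. Worked back from the reads and levels, these totals were 13193290 reads for female and 12137619 reads for male leaves. On that scale 1 read was worth 0.0758 RPM in female leaves and 0.0824 RPM in male leaves. The 119 names together had 89612 reads (6792 RPM) in female leaves and 70300 reads (5792 RPM) in male leaves. That was 3.63% of all known miRNA reads in female leaves (exact 95% binomial interval 3.61 to 3.65%) and 2.87% in male leaves (2.85 to 2.89%). The conserved families held 58.7% of known miRNA reads in female leaves and 54.8% in male leaves. The higher female sum rested on 1 name: without miR5386, the sums were 5146 RPM in female leaves and 5792 RPM in male leaves. The 33 names found in both libraries likewise summed to 4386 RPM in female leaves and 4952 RPM in male leaves. The intervals cover counting error only, as the labels name no molecular identifiers that would mark PCR copies. Each interval is for the reads of 1 name or class, and names are not replicates of a sex. In bulk leaf RNA, fewer cells of a type and less RNA per cell cannot be told apart.

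A few names held most of the reads, while the majority stayed below 10 RPM. In female leaves 81.4%, and in male leaves 77.4%, of the reads of these short names fell on the 10 highest. The levels ran between 0.0758 and 1646 RPM in female leaves, with a median of 2.73 RPM over the names found there, and between 0.0824 and 1344 RPM in male leaves, with a median of 10.3 RPM. Of the 119 names, 44 reached 10 RPM in at least 1 library. The other 75 names summed to 81.7 RPM in female leaves and 53.1 RPM in male leaves, and 12 of the 85 female and 8 of the 67 male names had 1 to 3 reads. Next to the length limit, 65 names had 20 bases in every library that listed them and summed to 2548 RPM in female leaves and 4291 RPM in male leaves. Just outside it, the 291 less conserved names of 21 bases summed to 14045 RPM in female leaves and 13825 RPM in male leaves.

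**Figure D1:**
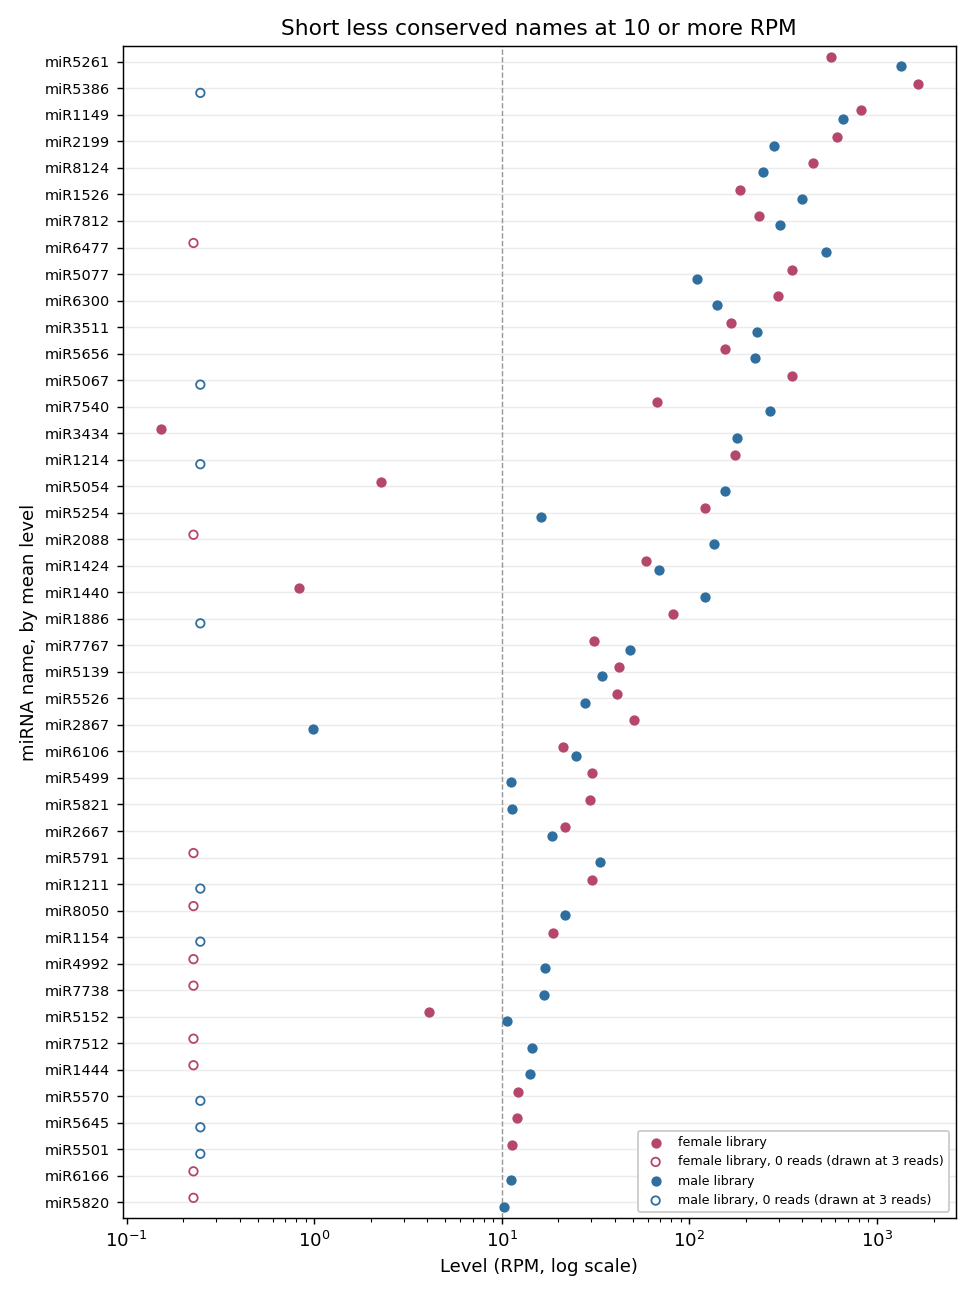
Level of each of the 44 short names that reached 10 RPM, in RPM on a log axis, with the female and the male library as separate points and names ordered by mean level. Open points stand for 0 reads and are drawn at the limit of 3 reads; the highest point is miR5386 at 1646 RPM in female leaves, with no read in male leaves, and miR3434 at 0.152 RPM in female leaves lies left of the open points because it had 2 reads.

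Of the 44 names at 10 or more RPM, 16 were higher in female leaves by 2-fold or more, 17 were higher in male leaves by 2-fold or more and 11 lay within 2-fold, on log2 of (female RPM + 1) over (male RPM + 1). Over all 232 known names at this level, 29.3% lay this far to the female and 33.2% this far to the male side, 62.5% together. For the short names these shares were 36.4% and 38.6%, 75% together. Of the 44 names, 19 had no read in 1 library, 9 of them male-absent and 10 female-absent, so they had to be more than 2-fold apart to enter. The median log2 ratio of the 44 names was -0.23, and over all 232 names it was -0.27. Between the libraries as a whole, the 117 known names at 10 or more RPM in both had a median log2 ratio of -0.23, and the values here are not corrected for it.

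Both libraries listed an identical sequence for 13 names at 10 or more RPM, of which 2 lay beyond 2-fold on the female side, 3 beyond it on the male side and 8 within it. This was 38.5% beyond 2-fold. Over all 96 known names of this kind the share was 27.1%, with 7.29% on the female side and 19.8% on the male side. Of the 12 names found in both libraries with different listed sequences, 5 were at least 2-fold higher in female leaves and 4 in male leaves. The difference between the 2 kinds of name was not tested. For different listed sequences no share over all known names was counted, so these counts cannot be read as a trait of the short names. Across the 119 names, 18 had the same sequence in both libraries, and these held 43.9% of the short names' reads in female leaves and 59.6% in male leaves.

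**Figure D2:**
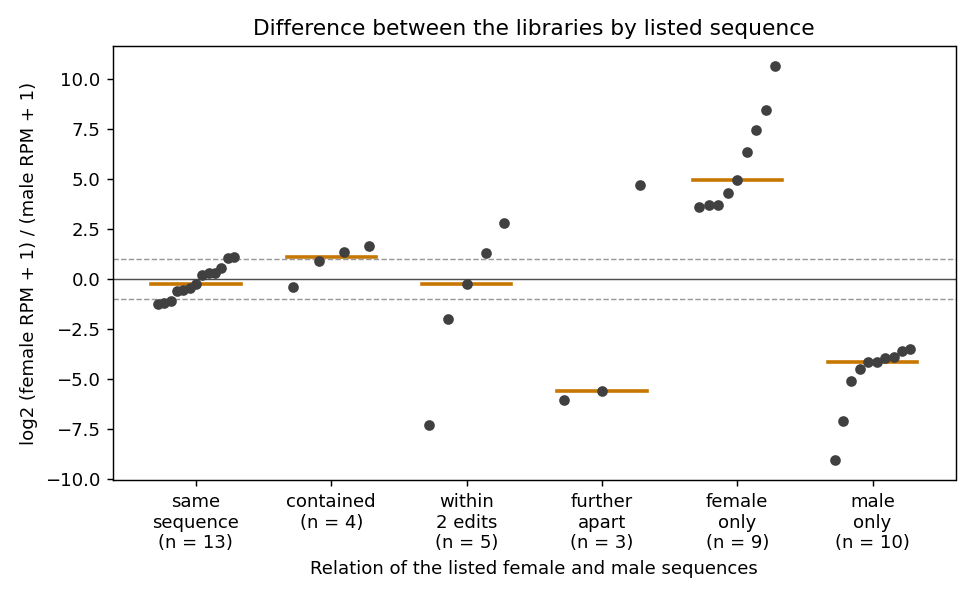
Log2 of (female RPM + 1) over (male RPM + 1) for the 44 names that reached 10 RPM, grouped by how the listed female and male sequences relate, with 1 point per name, an orange bar at the median and dashed lines at 2-fold. The 13 names with the same sequence lie between -1.25 and 1.12, while among names listed in 1 library the nearest to 0 is miR5820 at -3.50, as the minimum level requires.

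Among the names with the same listed sequence, miR5261 had the highest mean level. It stood at 565 RPM (7453 reads) in female leaves and 1344 RPM (16308 reads) in male leaves, 2.38-fold higher in male leaves (exact 95% interval of the read ratio 2.31 to 2.44). miR1526, a name first given in soybean, stood at 186 RPM in female leaves and 399 RPM in male leaves, 2.14-fold higher in male leaves (2.04 to 2.25). It lay within 2-fold when the libraries were scaled by the median ratio (log2 -0.86) or by the total over known names (log2 -0.99). Both were thus more abundant in male leaves, miR5261 under each scaling by at least 2-fold.

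The opposite direction was seen for miR2199 and miR6300. miR2199 stood at 612 RPM (8073 reads) in female leaves and 282 RPM (3419 reads) in male leaves, 2.17-fold higher in female leaves (2.09 to 2.26). miR6300, a name first given in soybean and listed here with 18 bases, stood at 296 RPM in female leaves and 141 RPM in male leaves, 2.10-fold higher in female leaves (1.99 to 2.23). The remaining name of this kind beyond 2-fold, miR5152, was at low levels and was picked out after its values were seen. It had 54 female and 130 male reads (4.09 and 10.7 RPM), 2.62-fold higher in male leaves (1.89 to 3.66).

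The other names with the same listed sequence lay within 2-fold. miR1149, a name first given in the green alga Chlamydomonas, stood at 826 RPM in female leaves and 655 RPM in male leaves, 1.26-fold higher in female leaves (1.23 to 1.30). miR3511 stood at 166 RPM in female leaves and 228 RPM in male leaves, 1.37-fold higher in male leaves (1.30 to 1.45). miR5656, a name from Arabidopsis, stood at 154 and 224 RPM in female and male leaves, 1.45-fold higher in male leaves (1.37 to 1.54). All 3 read intervals exclude equal levels in these libraries, but none reached 2-fold.

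At lower levels, miR7767 stood at 31.2 RPM in female leaves and 48.2 RPM in male leaves, 1.55-fold higher in male leaves (1.36 to 1.76). miR5139 stood at 42.0 RPM in female leaves and 34.2 RPM in male leaves, 1.23-fold higher in female leaves (1.08 to 1.40). miR5526, a name from rice, stood at 40.9 RPM in female leaves and 27.8 RPM in male leaves, 1.47-fold higher in female leaves (1.28 to 1.69). For miR2667 and miR6106, picked out after their values were seen, the intervals included equal levels: miR2667 had 288 female and 225 male reads (female over male 1.18, 0.986 to 1.41), and miR6106 had 279 and 301 (0.853, 0.722 to 1.01).

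The names with the largest excess in female leaves were miR5386, miR5067, miR1214, miR1886, miR1211, miR2867, miR1154 and miR5570. All but miR2867 had no male read, so each fold is a lower bound set against 3 male reads. The sequences of the others are given because only female leaves listed them, that of miR5386 standing above. Capitals again mark bases 2 to 8.
miR5067: tCAGCACTataagtatggat
miR1214: tCATGAAAatcgcgcggcc
miR1886: tGGAAAAGtagatgaaatt
miR1211: aGGACGGTggttatggaag
miR1154: cCTTTGTAgacgactaaat
miR5570: aAAAGCACaaatcagaggca

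miR5386 alone made up 24.2% of the reads of the short names in female leaves, with 21720 reads, and was at least 6661-fold higher there. At 18 bases it was 77.8% G and C, which only miR5054 and miR2102 exceeded in female leaves, both at 85%; miR2102 was picked out after its values were seen. miR1214 and miR1211, names first given in the moss Physcomitrella, had 2320 and 398 female reads (176 and 30.2 RPM) and were at least 711-fold and 122-fold higher in female leaves. miR1886, a name from Arabidopsis, had 1078 female reads (81.7 RPM, at least 331-fold). miR5067 had 4659 female reads (353 RPM, at least 1429-fold), miR1154 had 246 (18.6 RPM, at least 75.4-fold) and miR5570 had 161 (12.2 RPM, at least 49.4-fold). miR2867 had 664 female and 12 male reads, 50.9-fold higher in female leaves (28.9 to 99.0), but its listed sequences differed at 4 positions. Counted from the 5′ end, with the female base first, these were A3T, G12A, C14G and A19C.

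The names with the largest excess in male leaves were miR6477, miR3434, miR2088, miR1440, miR5054, miR5791, miR8050 and miR4992. Of these 8, 3 had female reads, each with another listed sequence, and they are printed as pairs.
miR3434, female: tCAGGGTAtcgacatgtgag
miR3434, male: tCAGGTATcggacatgtgag
miR1440, female: gCTACCAAtaccactctctt
miR1440, male: tTTAGAGAgagtggttttta
miR5054, female: gGGCCCCAcggtgggcgcca
miR5054, male: gGTCCCCAcagacggcgcca
miR2088, male: aGCGTATGattaaattggac
miR5791, male: tTGACAGGagaatagagcag

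miR3434 had 2 female and 2179 male reads, 1184-fold higher in male leaves with an interval of 327 to 9785. miR1440, a name from rice, had 11 female and 1475 male reads, 146-fold higher in male leaves (81.2 to 293). Its listed female and male sequences were 13 edits apart, but 10 bases of one occurred in the reverse complement of the other. miR5054 had 30 female and 1885 male reads, 68.3-fold higher in male leaves (47.7 to 102), and its sequences differed by G3T, G10A, T12A and G13C. For these 3 names the libraries did not list the same sequence, so the ratio compares names. The other 5 were not read in female leaves. Set against 3 female reads, miR6477 (6493 male reads, 535 RPM) was at least 2353-fold higher in male leaves, miR2088 (1646 reads, 136 RPM) at least 596-fold and miR5791 (405 reads, 33.4 RPM), a name from rice, at least 147-fold. miR8050 (263 reads, 21.7 RPM) was at least 95.3-fold higher there and miR4992 (205 reads, 16.9 RPM) at least 74.3-fold.

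Of the 119 short names, 86 (72.3%) were listed in 1 library, 52 in female leaves and 34 in male leaves, against 384 of all 723 known names (53.1%). The rule raises this share, because a name with a longer sequence in the other library is not a member. With the names of 20 or fewer bases in at least 1 library it was 86 of 166 (51.8%). This wider set adds only names found in both libraries, so its share can only be lower. Among less conserved names of 21 bases in every library, a rule of the same kind, it was 177 of 291 (60.8%). Of the 45 names of 22 bases, 26 were found in female leaves and 29 in male leaves. Of the 71 names of 23 or more bases, 35 and 52 were found. Most names of these lengths were thus also listed in 1 library only, so a high share is not particular to the short names. The short names listed only in female leaves summed to 2406 RPM, or 35.4% of the short names' reads there. Those listed only in male leaves summed to 840 RPM, or 14.5%. Their median was 11.5 reads in female leaves and 22.5 reads in male leaves, and 9 female and 8 male names had at most 3 reads. Absence in the other library was not detectable as a difference for such names. One of the names listed in 1 library was miR1444, which targets polyphenol oxidase transcripts in poplar, with no female and 171 male reads (14.1 RPM), at least 62.0-fold higher in male leaves. miR2119, which targets an alcohol dehydrogenase in legumes and was picked out after its values were seen, was found in both libraries with the same sequence, at 3.49 RPM (46 reads) in female leaves and 4.94 RPM (60 reads) in male leaves.

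Of the 15 names found in both libraries with different listed sequences, 4 shared bases 2 to 8 and 11 did not. In 3 names at 10 or more RPM the same stretch started at another base, which moved the seed. In miR2928 and miR5142, below 10 RPM and picked out after their values were seen, the best shared stretch of 6 bases also lay at another start, in sequences 6 edits apart. miR7540, picked out after its values were seen, is shown beside miR7812 and miR5077, whose sequences stand above, with capitals on bases 2 to 8.
miR7540, female: tTGAGTATgaaaggatgtga
miR7540, male: tGAGTATGaaaggatgtgaa
In miR7540 and miR7812 the male sequence began 1 base further in than the female one, and in miR5077 it began 2 bases further out. miR7540 stood at 67.5 RPM in female leaves and 269 RPM in male leaves, 3.98-fold higher in male leaves (3.69 to 4.29). miR7812 stood at 234 RPM in female leaves and 303 RPM in male leaves, 1.30-fold higher in male leaves (1.24 to 1.36). The predicted targets of miR7812 numbered 15 for the female sequence of 20 bases and 27 for the male sequence of 19 bases. Of these, 12 were on both lists. miR5077 stood at 350 RPM in female leaves and 109 RPM in male leaves, 3.20-fold higher in female leaves (3.01 to 3.40), with no listed target in either.

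A difference at the 3′ end left the seed as it was. miR8124 stood at 458 RPM in female leaves and 247 RPM in male leaves, 1.86-fold higher in female leaves (1.78 to 1.94), and passed 2-fold when scaled by the median ratio (log2 1.12). Its male sequence had 1 more base at the 3′ end, and the target lists held 9 transcripts for the female sequence and 0 for the male one. miR5254 stood at 121 RPM in female leaves and 16.2 RPM in male leaves, 7.46-fold higher in female leaves (6.43 to 8.69). Its sequences differed only by T20C at the last base, and all 17 targets of the male sequence were among the 21 of the female one. miR5499, a name from rice picked out after its values were seen, also had 1 more base at the 3′ end in male leaves. It stood at 30.2 RPM in female leaves and 11.2 RPM in male leaves, 2.69-fold higher in female leaves (2.21 to 3.30). The fourth name with an unchanged seed, miR1424, differed by G19T and was likewise picked out after its values were seen. It had 773 female and 837 male reads (58.6 and 69.0 RPM, log2 ratio -0.23), and the 7 targets of the female sequence were all among the 11 of the male one.

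An exact shared stretch of at least 16 bases was found with another name for 8 of the 119 short names, 7 of them at 10 or more RPM. No pair of short names had one. Near matches with a mismatched base were not counted, such as that of miR1211 to the female sequence of miR2867. These pairs matter for the levels, because reads of one RNA could have been split between the names, and how the authors assigned such reads was not stated in the labels or the tables. Capitals here mark the longest shared stretch, of at least 16 bases.
miR5077, female: TTCACGTCGGGTTCACCA
miR894: gtTTCACGTCGGGTTCACCA
miR5139: AACCTGGCTCTGATACCA
miR8155, female: atcgtAACCTGGCTCTGATACCA
miR5499, female: GCAGGAAGATCGTTTGGTa
miR6280: ttgGCAGGAAGATCGTTTGGT
miR2867, female: cCAGGACGGTGGTCATGGAa
miR5813: acagCAGGACGGTGGTCATGGA
miR5254, female: AGGAGCTGAAGCATTTGgat
miR2592, male: ctacAGGAGCTGAAGCATTTG
miR2667: tTCTTGATCTACACGGCACC
miR1028, female: TCTTGATCTACACGGCACC
miR2088, male: agcGTATGATTAAATTGGAC
miR812, male: aaatGTATGATTAAATTGGACa

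The libraries divided reads differently within several of these pairs. miR5077 took 20.9% of the reads of miR5077 and miR894 together in female leaves and 4.96% in male leaves. miR894, a name first given in moss, stood at 1325 RPM in female leaves and 2096 RPM in male leaves, so it was higher in male leaves while miR5077 was higher in female leaves. The sum of the pair was 1675 RPM in female leaves and 2205 RPM in male leaves. Likewise miR5254 took 76% of its pair with miR2592 in female leaves and 14.3% in male leaves, and the pair summed to 159 RPM in female leaves and 114 RPM in male leaves. Summing thus turned the direction for the first pair and brought the second within 2-fold. Only the male sequence of miR2592 shared the stretch with miR5254. The female share and sum of that pair therefore include reads listed under an unlike sequence.

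In the other pairs the summed direction was that of the short name, except for miR5139. Only the female sequence of miR1028 overlapped miR2667, and only the male sequence of miR812 overlapped miR2088. miR5499 with miR6280 summed to 505 RPM in female leaves and 396 RPM in male leaves, within 2-fold, although miR5499 alone was beyond it. miR5139 took 63.3% of its pair with miR8155 in female leaves and 46.8% in male leaves, and the pair summed to 66.3 RPM in female leaves and 73.0 RPM in male leaves. miR2867 was 19.2% of its pair with miR5813 in female leaves and 1.05% in male leaves, and the sums were 263 RPM in female leaves and 94.2 RPM in male leaves. The names miR2088 and miR812 were both nearly confined to male leaves: together they stood at 0.0758 RPM in female leaves and 419 RPM in male leaves. The eighth pair, miR6276 with miR5747, had 2 reads of the short name in male leaves and none in female leaves.

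**Figure D3:**
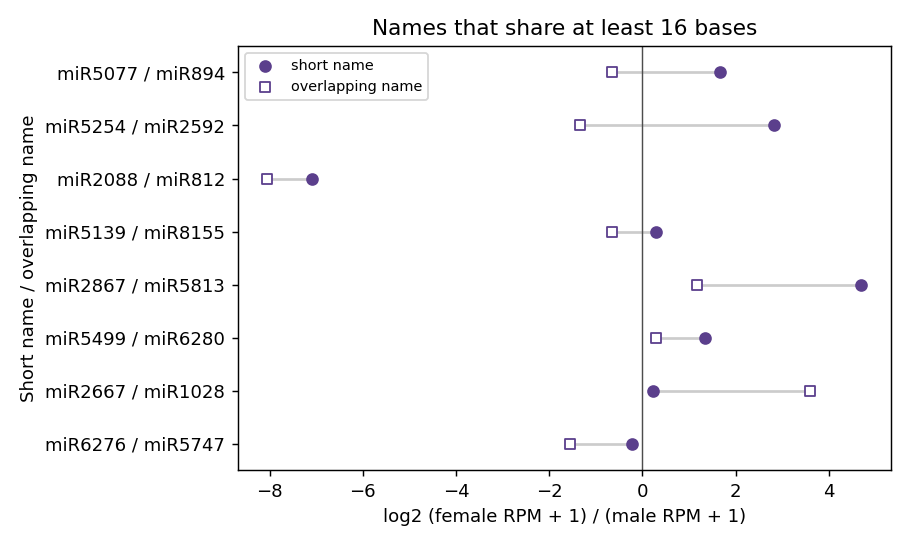
Log2 of (female RPM + 1) over (male RPM + 1) for the 8 short names that share at least 16 bases with another name (filled circles) and for that other name (open squares), joined by a line. miR5077, miR5254 and miR5139 lie right of 0 (1.67, 2.82 and 0.29) while their partners miR894, miR2592 and miR8155 lie left of it (-0.66, -1.33 and -0.65). The female sequence of miR2592 does not share the stretch.

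Seeds shared with other names were counted for the short names only, so the counts are a description. The short names held 128 distinct stretches at bases 2 to 8, of which 16 also occurred at bases 2 to 8 of another known name, 4 of them in a name numbered below 1000 and 2 in a conserved family. The pairs at 10 or more RPM with a name numbered below 1000 are printed with that stretch in capitals.
miR1526: cCGAAGAAgacaataagcaa
miR835: tCGAAGAAgataagaagcaag
miR6300: gTCGTTGTagtatagtgg
miR858: tTCGTTGTctgttcggcctt
miR5526: aCAGGTAGgtaggtagag
miR864: tCAGGTAGtttggacttcaat
miR835 stood at 155 RPM in female leaves and 338 RPM in male leaves, beside 186 and 399 RPM of miR1526, so both were higher in male leaves. miR6300 shared its seed with miR858, a regulator of MYB transcription factors, which stood at 92.9 RPM in female leaves and 147 RPM in male leaves and so was higher in male leaves, where miR6300 was lower. miR864 had no female read and 0.0824 RPM, 1 read, in male leaves. The remaining one was miR5214, picked out after its values were seen, with 1 male read and no female read, which shared its seed with miR156, the regulator of SPL transcription factors.

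Counted by names, the short names began with T in a smaller share than the less conserved names of 21 bases. Among the short names, 31 of 85 (36.5%) in female leaves and 28 of 67 (41.8%) in male leaves began with T, and 29 and 26 began with A. Over all less conserved names with 20 or fewer bases in one library, names of mixed length included, T came first in 39.3% of 117 female names (exact interval 30.4 to 48.8%) and 42.7% of 82 male names (31.8 to 54.1%). For 21 bases the shares were 57.3% of 232 female names (50.7 to 63.8%) and 56.9% of 239 male names (50.4 to 63.3%). At 22 bases T came first in 34.2% of female and 38.5% of male names, and at 23 or more bases in 40.9% and 44.4%, shares near those of the short names. Counted by reads, sequences starting with T made up 39.4% at 20 or fewer bases and 60.2% at 21 bases in female leaves, but 67.6% and 56.6% in male leaves, the opposite order. For the shares of names, the intervals for 20 or fewer bases, mixed length included, and for 21 bases were apart in female leaves. In male leaves they overlapped. These intervals treat names as independent, which related names are not. The median G and C content of the short names was 44.4% in female leaves and 42.1% in male leaves, with a range of 26.3 to 85% and of 20 to 75%.

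Sequences ending in CCA, the bases at the 3′ end of every mature transfer RNA, belonged to 4 short names in both libraries: miR5077, miR5054, miR5139 and miR5152. That was 4 of 85 (4.71%) in female leaves and 4 of 67 (5.97%) in male leaves, beside 2.7% of 445 and 2.15% of 465 other known names. They summed to 398 RPM in female leaves and 310 RPM in male leaves. Whether these reads, or those of the other short names, came from transfer RNA or another cellular RNA was not tested. Pieces that lack the 3′ end of a transfer RNA would not be seen by this count.

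The share of names found in both libraries was not separable from that of 21-base names. Of the less conserved names with 20 or fewer bases in female leaves, 55.6% (46.1 to 64.7%) were found in male leaves under any sequence, beside 61.6% (55.0 to 67.9%) of those with 21 bases. Taken from male leaves, the shares were 58.5% (47.1 to 69.3%) and 63.2% (56.7 to 69.3%). Of the names with 20 or fewer bases so found, 27.7% (17.3 to 40.2%) from female leaves and 37.5% (24 to 52.6%) from male leaves had the same sequence in both. For 21 bases these shares were 50.3% (41.9 to 58.8%) and 47.7% (39.5 to 56.0%). The intervals were apart for this share in female leaves and overlapped in male leaves. These sets include names of mixed length, which cannot have the same sequence in both libraries. By the rule of the 119 short names, which leaves those out, 18 of the 33 found in both libraries had the same sequence.

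**Figure D4:**
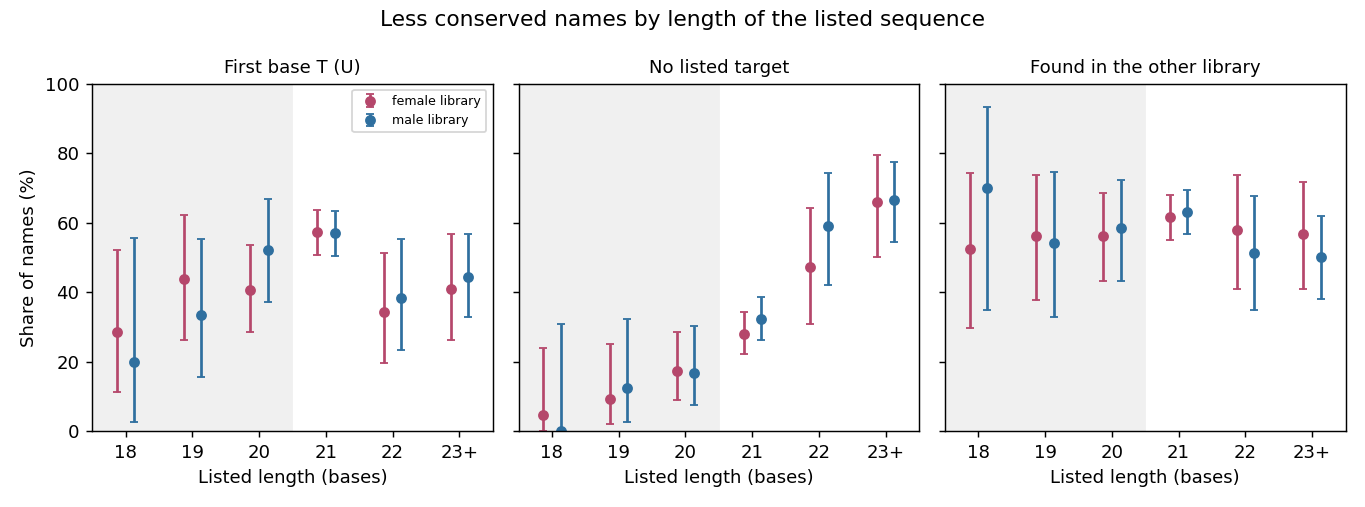
Share of less conserved names, in percent, by length of the sequence listed in female leaves and in male leaves, that began with T, had no listed target, or were found in the other library, with exact 95% intervals and with 20 or fewer bases on grey. Names without a target made up 12.8% of female and 13.4% of male sequences of 20 or fewer bases, against 28.0% and 32.2% of 21-base sequences.

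Predicted targets were listed for most of the short names. The target tables are the authors' predictions from the sequences, with no annotation of the transcripts, so they are not measurements. No target was listed for 9 of 85 short names in female leaves and 11 of 67 in male leaves, and the median number was 4 and 5 targets. Over less conserved names with 20 or fewer bases, 12.8% of female (7.36 to 20.3%) and 13.4% of male names (6.89 to 22.7%) had none. With 21 bases, 28.0% of female (22.3 to 34.3%) and 32.2% of male names (26.3 to 38.5%) had none, at a median of 2 targets in both libraries. The share without a target was highest at 23 or more bases, 65.9% in female leaves and 66.7% in male leaves. Short names made up 16% of the known names but 31.8% of the name and target pairs in female leaves, and 12.6% of names and 23.8% of pairs in male leaves.

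The names at 10 or more RPM with the most targets were miR5139, miR5656, miR1886, miR5254 and miR5526 in female leaves, where miR7812 tied with miR5526 at 15 targets, and miR5139, miR5656, miR1444, miR5820 and miR7812 in male leaves. miR5139 had 45 listed targets in both, of which 41 were assembled ginkgo leaf transcripts and 4 public sequence records. miR5656 had 32, with 16 of each kind, and miR5526 had 15, in both libraries. miR1886 had 22 targets, in female leaves only, and miR1444 and miR5820 had 27 each, in male leaves only. All 15 names with the same sequence in both libraries and any target had identical lists, as the prediction from sequence requires. The longest list, 83 targets, belonged to miR2919, picked out after its values were seen, which had 5 female reads and no male read.

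Few targets were shared, among the short names as among all known names. Over all known names, 2415 name and target pairs fell on 2116 distinct targets in female leaves, and 2351 on 2002 in male leaves. For the short names, 767 pairs fell on 735 distinct targets in female leaves and 559 on 516 in male leaves. Of these, 14 and 18 were listed for 2 or more short names, at most 5 in female leaves and 6 in male leaves. Of the distinct targets, 681 (92.7%) in female leaves and 463 (89.7%) in male leaves were listed for no other known name. Among leaf transcripts, 5 were listed for 3 short names in female leaves. 4 of these, CL249.Contig1 to CL249.Contig4, are contigs of 1 assembly cluster and were listed for miR5254, miR5821 and miR6446. CL2141.Contig2 was listed for miR1211, miR1214 and miR2867, of which miR1211 and miR2867 are the near match given above. In male leaves 1 leaf transcript, Unigene136, was listed for 3 short names: miR1440, miR2628 and miR3434. miR5821, a name from rice, stood at 29.3 RPM in female leaves and 11.4 RPM in male leaves (2.58-fold higher in female leaves, 2.12 to 3.16). Its sequences differed by A3T within the seed, yet all 4 targets were the same. miR5821, miR6446, miR2628 and these transcripts were picked out after their values were seen.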

How the data were processed

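Small RNA of 1 female and 1 male leaf library was analysed from the authors' tables of known miRNAs. The deposited read counts per name stand beside 1 listed sequence. The rule behind that choice, and whether other variants of the name are counted with it, were not stated in the labels or tables. For the aligner, miRNA database and target tool nothing is given in the sources used here. The level table is named TPM by the authors, but its values were deposited as RPM: each equalled the reads over 1 library total to within 5e-05 RPM. The deposited target tables give another kind of value, the number of predicted targets. Tables of predicted miRNAs were not used.

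Members, lists and alternatives were chosen with earlier results of these data known. Names reaching 10 RPM in either library were compared on log2 of (female RPM + 1) over (male RPM + 1). Ratios carry exact 95% conditional binomial (Clopper-Pearson) intervals from the reads, which cover counting error only. A name at 0 got a limit of 3 reads per library, 0.227 RPM in female leaves and 0.247 RPM in male leaves. A fold bound set by 3 reads is higher than the exact interval's lower end. With 1 library per sex no test between the sexes was possible and no p-value was computed. Named were the 10 highest names by mean level, the 8 largest ratios in each direction, up to 10 with the same sequence, up to 5 with most targets per library and up to 8 shared seeds, in all 32 names; others are said to be picked out afterwards. Alternatives were the pseudocount, minimum, scaling, threshold, sequence identity and length limit; leaving out overlapping names, or names found in 1 library, was added after the data were seen. Scripts used Python 3.11.15 and SciPy 1.17.1 and were tested on simulated data.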

Additional observations from a re-analysis of the deposited data

How the results depend on the processing

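The counts of short names beyond 2-fold (33 in all, 16 higher in female leaves and 17 in male leaves) stayed within 1.5 times under another pseudocount, both other scalings, a 1.5-fold threshold, read intervals wholly beyond 2-fold and without the overlapping names. With no minimum level they were 59, 30 and 29 of 119 names, and with a minimum of 100 RPM 15, 7 and 8 of 20 names. With the same listed sequence only they were 5, 2 and 3 of 13 names, and with names found in both libraries only 14, 7 and 7 of 25. With 20 or fewer bases in at least 1 library they were 50, 28 and 22 of 67 names, and with 19 or fewer bases 13, 8 and 5 of 18; these settings change which names enter. With scaling by the median ratio they were 30, 17 and 13 of 41 names. The median log2 ratio of -0.23 was -0.18 with a pseudocount of 10, -0.0026 with scaling by the median ratio and -0.12 with scaling by the total over known names. Names with the same sequence held 1.59% of known miRNA reads in female leaves and 1.71% in male leaves, against 3.63% and 2.87% for all short names, so the library with the larger share turned. None of the 32 named ratios changed sign under the pseudocounts and scalings tried, but for most settings this was fixed beforehand. A pseudocount cannot change the sign, and scaling cannot change it for a name with no read in 1 library. The sizes did change: with a pseudocount of 10 the log2 ratio of miR5386 was 7.37 instead of 10.7. No paired analysis was possible because there is 1 library per sex, and no replicate could be left out. Levels under about 1 RPM rest on a few reads, and modest differences there were not detectable at this depth.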
